A study of Mus musculus with 20 samples.

Results

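The integrated stress response genes described here are 10 mouse genes, Atf4, Atf5, Ddit3, Ddit4, Chac1, Trib3, Asns, Sesn2, Psat1 and Slc7a11, taken by symbol out of the 33581 genes in each deposited table. They were followed in 3T3-L1 cells, a mouse fibroblast line that turns into fat-storing adipocytes in culture. Cells carried a lentiviral short hairpin RNA against Tcf7l2 (knockdown) or a scrambled hairpin (scrambled), and RNA was sequenced every other day as they differentiated (days 0, 2, 4, 6 and 8). Each hairpin had 2 libraries a day, which makes 10 groups and 20 libraries. Tcf7l2 encodes a transcription factor of the Wnt pathway, and the study asked which genes it regulates during adipogenesis. All groups shared a SMARTvector backbone, puromycin selection of a mixed infected population, and differentiation medium to which a thiazolidinedione was not routinely added. Nothing in the labels ties the 2 libraries of a group to separate infections or dishes, so p-values measure the spread between libraries, which may be technical. In the limma fits that spread is pooled per gene over all groups, except in the separate fits of each day. A group's SD is therefore not the spread behind the p-value printed near it. The hairpin's sequence is not named in the labels, and no library of another Tcf7l2 hairpin is among the 20.

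Cells run the integrated stress response when kinases phosphorylate the translation initiation factor eIF2alpha, in answer to amino acid shortage, unfolded proteins in the endoplasmic reticulum (ER), double-stranded RNA or haem shortage. General translation then drops while the Atf4 mRNA is translated more, and the ATF4 protein, paired with C/EBP family partners, turns on genes for amino acid supply, feedback and cell death. Because ATF4 is controlled largely at translation, the level of its mRNA is not a readout of its protein. In 3T3-L1 cells the product of Ddit3 (CHOP) is known to hold back adipogenesis by pairing with C/EBP proteins.

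ATF4 binds with C/EBP partners at composite sites for which TGATGCAA is a typical core. Both TGATGCAA and the looser TGATGNAA, which covers it, were searched on both strands of RefSeq promoter windows (GRCm38.p6) of 300 bases, 250 before and 50 after each start. The 10 genes have 12 windows. TGATGNAA was found in 4 of the 12, against 3.97% of all 32851 mouse windows, and TGATGCAA in 2 of the 12, against 0.895% of windows. The 4 windows lie at 4 genes, and their stretches are shown because these genes were followed together here, with the matches in capitals on the gene's own strand, 5′ to 3′. Chac1 (chr2:119350992-119351241, plus strand), Slc7a11 (chr3:50443614-50443863, minus strand) and Asns (chr6:7693210-7693459, minus strand) are printed for the 250 bases before the start, and Trib3 (chr2:152344028-152344057, minus strand) for the 30 bases around a match that begins 15 bases after it.
Chac1: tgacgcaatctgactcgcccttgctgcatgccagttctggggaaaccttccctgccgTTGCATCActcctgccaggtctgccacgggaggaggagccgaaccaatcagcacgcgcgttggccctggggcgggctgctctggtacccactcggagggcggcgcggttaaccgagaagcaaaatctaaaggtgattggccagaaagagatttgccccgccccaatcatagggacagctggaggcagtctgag
Slc7a11: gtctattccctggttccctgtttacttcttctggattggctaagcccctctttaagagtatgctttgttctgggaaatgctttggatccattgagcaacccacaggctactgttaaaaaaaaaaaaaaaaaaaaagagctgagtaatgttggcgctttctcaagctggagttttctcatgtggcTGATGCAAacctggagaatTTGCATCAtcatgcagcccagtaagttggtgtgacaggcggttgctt
Asns: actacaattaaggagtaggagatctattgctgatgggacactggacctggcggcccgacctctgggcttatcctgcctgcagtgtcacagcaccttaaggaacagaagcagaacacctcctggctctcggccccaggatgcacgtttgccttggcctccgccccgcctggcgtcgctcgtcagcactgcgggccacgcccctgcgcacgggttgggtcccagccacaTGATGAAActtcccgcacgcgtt
Trib3: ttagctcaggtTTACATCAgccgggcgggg
Counted back from the start, the Chac1 match lay at -193 to -186, the pair in Slc7a11 lay at -66 to -59 and -47 to -40 in opposite orientations, and the Asns match lay at -23 to -16. A match is a run of letters and no measured binding site, and the other 6 genes had no match in the window.

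The hairpin lowered its target in every comparison of libraries. Tcf7l2 lay at 12.2 to 23.4 RPM (reads recovered from the deposited values and scaled to library size) in the 10 knockdown libraries and at 38.5 to 59.0 RPM in the 10 scrambled libraries, an average log2 difference of -1.36 (adjusted p = 2.61e-08). Libraries held 20153362 to 33973608 reads, and the 9 fibroblast and preadipocyte markers were present in each, with sums of 18703 to 53845 RPM. The scrambled libraries numbered 2 at days 4, 6 and 8 stood apart from their partners: the 12 mature adipocyte markers summed to 15259, 29374 and 30701 RPM there, and to 5137, 13112 and 7277 RPM in scrambled libraries 1 of those days. The lowest and highest knockdown sums of those days were 2619.9 and 5913 RPM. In bulk RNA fewer adipocytes and less adipocyte RNA per cell cannot be told apart. The average effects, on members and on gene lists, are given with and without these 3 libraries.

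At days 0, 2 and 8 most of the 10 genes had higher means in knockdown cells, with Chac1, Trib3 and Ddit3 at 1.71 to 4.36 times the scrambled mean. At days 4 and 6 scrambled library 2 held the highest level of Atf4, Ddit3, Trib3, Asns, Sesn2 and Psat1. No member's difference at a single day passed the main limma test across all genes. The authors' deposited table, fitted day by day, called 2, 2, 0, 1 and 2 of the 10 members at days 0, 2, 4, 6 and 8. Of all genes it called 1.63%, 4.72%, 2.53%, 6.16% and 3.55%. Averaged over the 5 days, Chac1, Slc7a11 and Atf5 rose with knockdown, and the other 7 members did not pass. Of all tested genes 25.4% passed in that fit, and 12.3% of all tested genes passed with higher levels in knockdown cells. With 1 library removed, the calls of Chac1, Slc7a11 and Atf5 were lost in 3, 6 and 8 of 20 fits. Effects below are log2 differences, knockdown minus scrambled, from limma.

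The first group of members are transcription factors, headed by Atf4 itself. Atf4 levels in knockdown libraries 1 and 2 were 219 and 238 RPM on day 0, 153 and 247 on day 2, 249 and 257 on day 4, 238 and 249 on day 6 and 274 and 259 on day 8. For Atf4, scrambled libraries 1 and 2 had 164 and 193 RPM on day 0, 128 and 151 on day 2, 177 and 368 on day 4, 151 and 266 on day 6 and 196 and 147 on day 8. Both knockdown libraries lay above both scrambled libraries at days 0, 2 and 8, whereas scrambled library 2 was the highest of the 4 libraries at days 4 and 6. At day 8 the means were 267 ± 10.8 RPM in knockdown and 172 ± 34.8 RPM in scrambled libraries (SD, n = 2 each), a log2 difference of 0.59 (SE 0.334, adjusted p = 0.305). The average knockdown effect over the 5 days was 0.32 (SE 0.14, adjusted p = 0.0975).

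Atf5 encodes a relative of ATF4 whose mRNA is likewise translated under stress. Atf5 levels in knockdown libraries 1 and 2 were 476 and 538 RPM on day 0, 154 and 255 on day 2, 398 and 466 on day 4, 381 and 453 on day 6 and 446 and 566 on day 8. For Atf5, scrambled libraries 1 and 2 had 406 and 487 RPM on day 0, 129.7 and 159 on day 2, 295 and 431 on day 4, 279 and 396 on day 6 and 357 and 275 on day 8. The knockdown library exceeded the scrambled library of the same number in 10 of 10 pairs, although the groups overlapped at days 0, 2, 4 and 6. Its average effect was 0.36 (SE 0.114, adjusted p = 0.0301), past the threshold. In both groups the day 2 levels were the lowest of the series.

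Ddit3 encodes CHOP, a C/EBP relative that promotes cell death under lasting stress. Ddit3 levels in knockdown libraries 1 and 2 were 134 and 107 RPM on day 0, 28.4 and 52.5 on day 2, 83.2 and 62.6 on day 4, 84.9 and 74.9 on day 6 and 105 and 89.5 on day 8. For Ddit3, scrambled libraries 1 and 2 had 77.0 and 64.5 RPM on day 0, 17.8 and 14.5 on day 2, 36.7 and 142 on day 4, 43.3 and 139 on day 6 and 58.4 and 34.6 on day 8. At days 0, 2 and 8 the groups did not overlap, with knockdown above. At days 4 and 6 scrambled library 1 was the lowest and scrambled library 2 the highest of the 4. The day 2 means were 40.4 ± 17.1 RPM in knockdown and 16.1 ± 2.32 RPM in scrambled libraries (SD, n = 2 each), and the average effect was 0.54 (SE 0.245, adjusted p = 0.115).

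**Figure D1:**
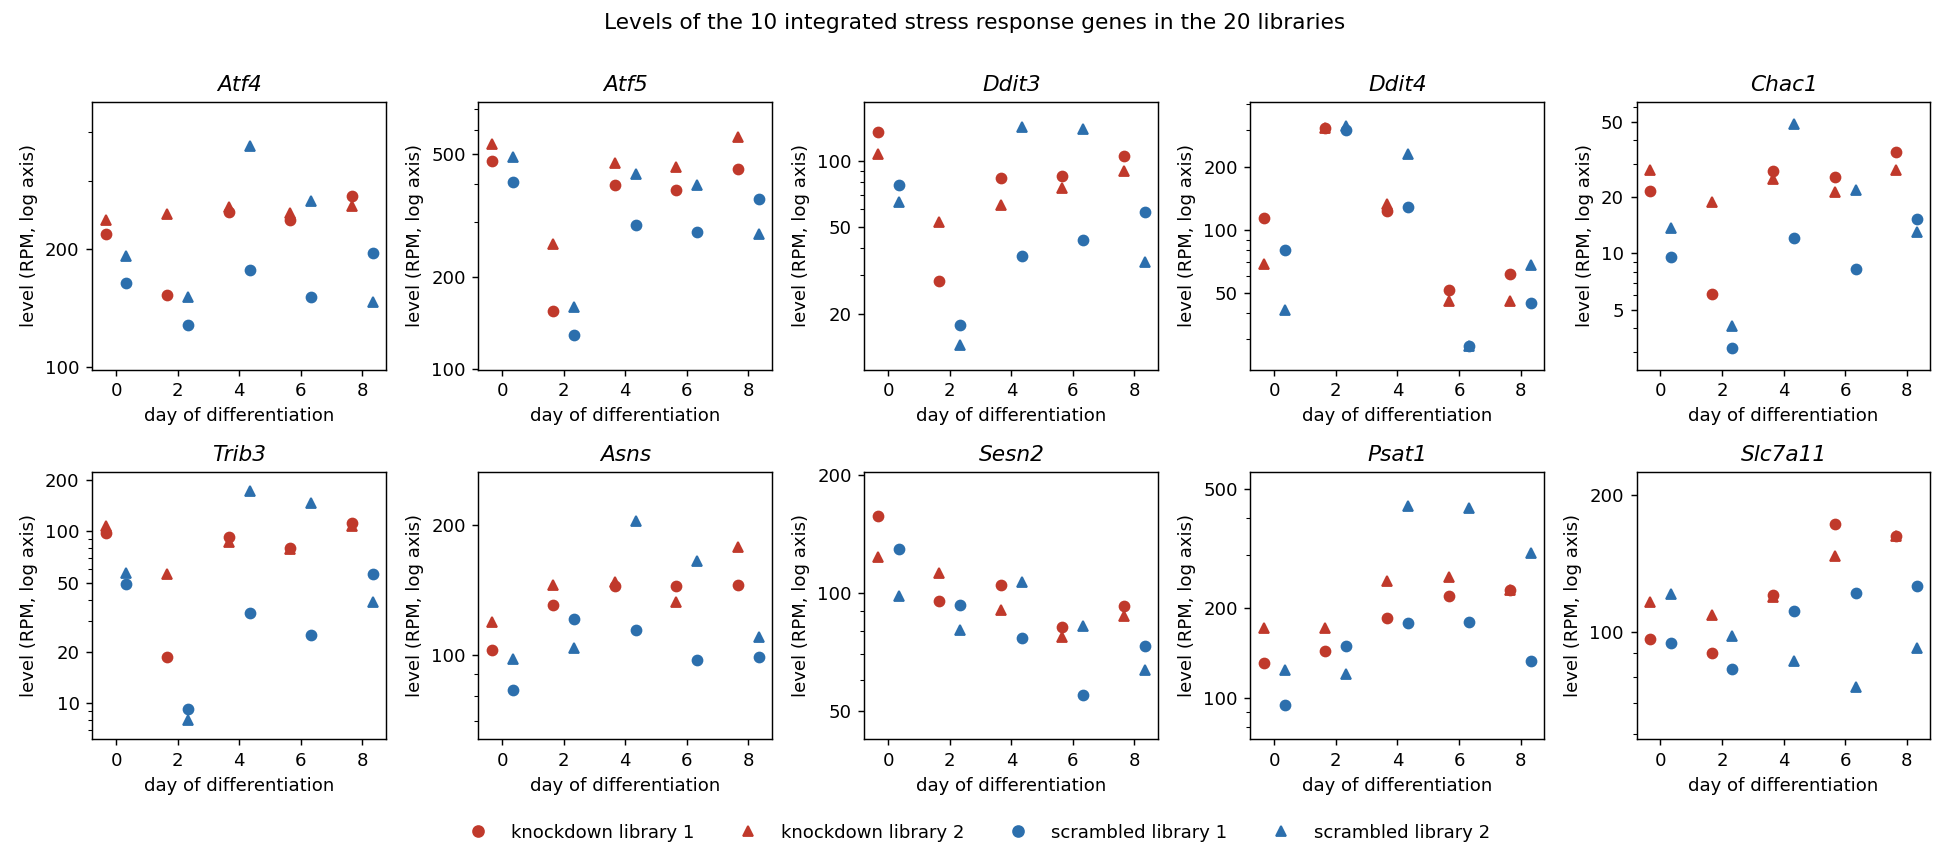
Level of each of the 10 genes (RPM, log axis) against day of differentiation, with 2 knockdown libraries (red) left of 2 scrambled libraries (blue), circles for number 1 and triangles for number 2. At days 4 and 6 the blue triangle is the highest point in the panels of Atf4, Ddit3, Trib3, Asns, Sesn2 and Psat1, while at day 8 both red points lie above both blue ones in 8 of 10 panels.

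Trib3 and Chac1, both induced late in the response, had the widest average differences of the 10. Trib3 encodes a pseudokinase that binds ATF4 and CHOP and restrains them. Trib3 levels in knockdown libraries 1 and 2 were 97.7 and 107 RPM on day 0, 18.5 and 56.8 on day 2, 93.0 and 86.1 on day 4, 80.2 and 78.8 on day 6 and 111 and 107 on day 8. For Trib3, scrambled libraries 1 and 2 had 49.2 and 57.4 RPM on day 0, 9.24 and 8.04 on day 2, 33.6 and 171 on day 4, 25.1 and 147 on day 6 and 56.8 and 38.9 on day 8. At day 2 knockdown library 1 had 2.00 times and knockdown library 2 had 7.07 times the level of the scrambled library with its number, and the means were 37.6 ± 27.1 RPM in knockdown and 8.64 ± 0.85 RPM in scrambled libraries (SD, n = 2 each). The groups were also apart at day 0, with 102 ± 6.77 RPM in knockdown and 53.3 ± 5.79 RPM in scrambled libraries (SD, n = 2 each). At day 8 they were apart again, with 109 ± 2.87 RPM in knockdown and 47.9 ± 12.7 RPM in scrambled libraries (SD, n = 2 each). The average effect of 0.78 (SE 0.305, adjusted p = 0.0698) was the widest of the 10 and missed the threshold.

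Chac1 encodes an enzyme that breaks down glutathione. Chac1 levels in knockdown libraries 1 and 2 were 21.6 and 27.7 RPM on day 0, 6.11 and 18.9 on day 2, 27.6 and 25.0 on day 4, 25.5 and 21.1 on day 6 and 34.7 and 27.9 on day 8. For Chac1, scrambled libraries 1 and 2 had 9.53 and 13.6 RPM on day 0, 3.14 and 4.09 on day 2, 12.1 and 49.1 on day 4, 8.30 and 21.6 on day 6 and 15.3 and 12.99 on day 8. Both knockdown libraries lay above both scrambled libraries at days 0, 2 and 8. At day 8 the means were 31.3 ± 4.84 RPM in knockdown and 14.1 ± 1.63 RPM in scrambled libraries (SD, n = 2 each), a ratio of 2.21. Chac1 rose on average, by 0.68 (SE 0.211, adjusted p = 0.0271). It is the lowest of the 10 by mean normalised count, and low levels are compressed on the deposited scale: from recovered reads the average log2 difference was 0.82 (adjusted p = 0.0306).

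Ddit4 and Sesn2 encode proteins that restrain the growth kinase complex mTORC1. Ddit4 (REDD1) is known to respond to hypoxia, stress and glucocorticoids. Ddit4 levels in knockdown libraries 1 and 2 were 115 and 68.7 RPM on day 0, 309 and 308 on day 2, 123 and 133 on day 4, 51.7 and 45.6 on day 6 and 61.6 and 45.9 on day 8. For Ddit4, scrambled libraries 1 and 2 had 80.4 and 41.3 RPM on day 0, 301 and 314 on day 2, 128 and 231 on day 4, 28.0 and 28.0 on day 6 and 44.9 and 68.2 on day 8. The 4 libraries of day 2 were within 300.8 to 314 RPM and were the highest of each library series. Day 6 was the one day on which both knockdown libraries lay above both scrambled libraries, and at day 8 scrambled library 2 was the highest of the 4. Its average effect was 0.15 (SE 0.166, adjusted p = 0.529).

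Sesn2 encodes a leucine sensor that restrains the same complex. Sesn2 levels in knockdown libraries 1 and 2 were 157 and 124 RPM on day 0, 95.8 and 113 on day 2, 105 and 90.7 on day 4, 82.1 and 77.3 on day 6 and 92.7 and 87.7 on day 8. For Sesn2, scrambled libraries 1 and 2 had 129.9 and 98.3 RPM on day 0, 93.2 and 80.4 on day 2, 76.8 and 107 on day 4, 55.1 and 82.5 on day 6 and 73.2 and 63.7 on day 8. The groups were apart at days 2 and 8 with knockdown above, and scrambled library 2 was narrowly the highest at days 4 and 6. The average effect was 0.23 (SE 0.0869, adjusted p = 0.0601).

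The remaining members supply amino acids. Asns, asparagine synthetase, is a classical ATF4 target. Asns levels in knockdown libraries 1 and 2 were 103 and 119 RPM on day 0, 131 and 145 on day 2, 144 and 147 on day 4, 144 and 132 on day 6 and 145 and 178 on day 8. For Asns, scrambled libraries 1 and 2 had 82.7 and 97.6 RPM on day 0, 121 and 104 on day 2, 114 and 204 on day 4, 97.1 and 165 on day 6 and 98.8 and 110.0 on day 8. Knockdown lay above scrambled without overlap at days 0, 2 and 8, and scrambled library 2 was highest at days 4 and 6. At day 8 the log2 difference was 0.56 (SE 0.279, adjusted p = 0.241), and on average it was 0.23 (SE 0.121, adjusted p = 0.175).

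Psat1 encodes an aminotransferase of serine synthesis. Psat1 levels in knockdown libraries 1 and 2 were 131 and 171 RPM on day 0, 144 and 172 on day 2, 186 and 246 on day 4, 219.9 and 254 on day 6 and 229 and 231 on day 8. For Psat1, scrambled libraries 1 and 2 had 94.9 and 124 RPM on day 0, 149.8 and 121 on day 2, 179 and 439 on day 4, 179 and 432 on day 6 and 133 and 306 on day 8. Scrambled library 2 exceeded the other 3 libraries at days 4, 6 and 8, with 306 RPM at day 8 against 133 RPM in scrambled library 1. Groups were apart at day 0 alone, and the average effect of 0.03 (SE 0.206, adjusted p = 0.939) changed sign in 7 of 20 fits with a library removed.

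Slc7a11 encodes the cystine importer xCT, a target of both ATF4 and NRF2. Slc7a11 levels in knockdown libraries 1 and 2 were 96.7 and 116 RPM on day 0, 90.0 and 109 on day 2, 121 and 119 on day 4, 173 and 147 on day 6 and 162 and 162 on day 8. For Slc7a11, scrambled libraries 1 and 2 had 94.8 and 121 RPM on day 0, 83.3 and 98.1 on day 2, 111 and 86.4 on day 4, 122 and 75.8 on day 6 and 126 and 92.4 on day 8. It was the one member for which scrambled library 2 was the lowest library at days 4, 6 and 8, and the groups did not overlap on those days. The day 6 means were 159.7 ± 18.2 RPM in knockdown and 99.0 ± 32.7 RPM in scrambled libraries (SD, n = 2 each), a log2 difference of 0.67 (SE 0.198, adjusted p = 0.0773). Its average effect was 0.31 (SE 0.0991, adjusted p = 0.0289), past the threshold.

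Taken day by day with limma, no member passed the threshold (Benjamini-Hochberg adjusted p under 0.05 over the 16497 genes tested, all 10 members among them). Each gene has 1 spread for all groups in this fit, so the wide scrambled pairs of days 4 and 6 enter the SE of every day. For Trib3 that SE was 0.725 on each of days 0, 2, 4, 6 and 8. On days 0, 2, 4, 6 and 8 the shares of all tested genes that passed were 0.224%, 0.267%, 1.61%, 4.12% and 5.75%. At an unadjusted p under 0.05 the members numbered 0, 0, 0, 1 and 2, beside 6.41%, 5.02%, 10.2%, 24.0% and 23.4% of all genes, and voom on recovered reads likewise called 0 members on each day. With the replicate number as a block, Slc7a11 passed at day 6 (log2 difference 0.67, adjusted p = 0.0162), and Slc7a11 (0.53, adjusted p = 0.0265) and Atf5 (0.63, adjusted p = 0.0406) passed at day 8. The block raised the share of all genes that passed to 18.0% at day 6 and 17.1% at day 8, so 1 and 2 of 10 members lay near the background. Without the 3 late scrambled libraries numbered 2, Trib3 passed at day 6 (1.57, adjusted p = 0.0324), with 4.43% of all genes, and Asns at day 8 (0.71, adjusted p = 0.0473), with 3.0%. That fit leaves 1 scrambled library on each of days 4, 6 and 8, which is assumed to vary like the other groups.

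Counted by library, both knockdown libraries lay above both scrambled libraries for 6 of 10 members at day 0, where 16.8% of all tested genes did so. The later counts were 6 on day 2, 1 on day 4, 2 on day 6 and 8 on day 8, where 21.9%, 20.4%, 27.4% and 22.4% of all genes did so. On none of the 5 days did a member lie below in both knockdown libraries, a pattern shown by 16.4%, 22.5%, 21.0%, 26.8% and 23.1% of all genes. At day 8 the members outside the pattern were Ddit4 and Psat1. At days 4 and 6 the members that kept it were Slc7a11 on both days and Ddit4 at day 6, shares of the members no higher than that of all genes.

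Split by library number, the days fell into different patterns. Within number 1, knockdown exceeded scrambled for 10, 9, 9, 10 and 10 of the 10 members at days 0, 2, 4, 6 and 8, where 49.4%, 48.5%, 46.9%, 49.9% and 49.7% of all genes did. Within number 2 the members numbered 9, 9, 2, 3 and 8, beside 50.3%, 49.5%, 49.9%, 50.1% and 50.7% of all genes. The members with knockdown above within number 2 at day 4 were Atf5 and Slc7a11, joined by Ddit4 at day 6. Trib3 gave the widest contrast, with log2 differences at day 6 of 1.57 within number 1 and -0.96 within number 2.

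**Figure D2:**
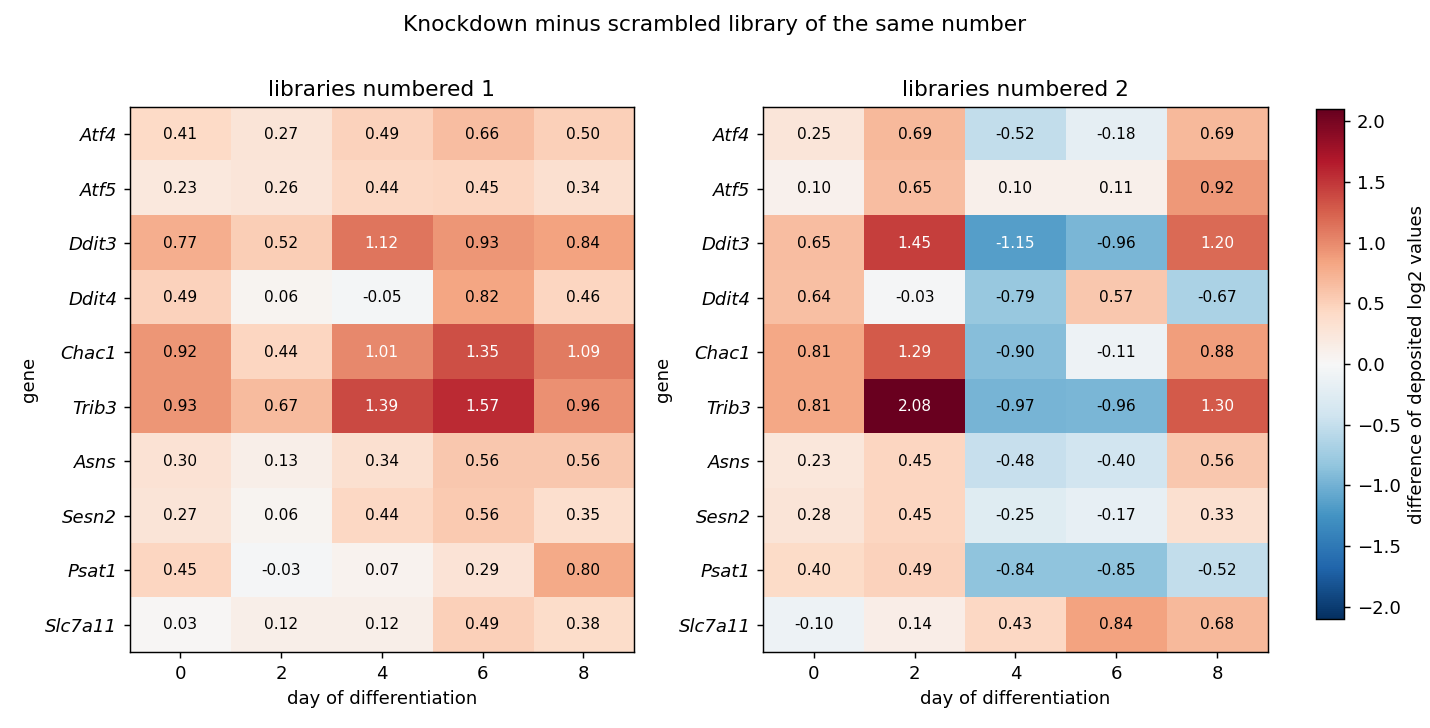
Knockdown minus scrambled library of the same number, as a difference of deposited log2 values, for the 10 genes (rows) and 5 days (columns), number 1 on the left and number 2 on the right. Number 1 is red in nearly all cells, and number 2 is blue for 8 genes at day 4 and 7 at day 6, with Ddit3 at -1.15 and Trib3 at -0.97 at day 4.

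The scrambled libraries numbered 2 differed from their partners on the days of that split. At day 4 that library had at least 2 times the level of scrambled library 1 for 5 of 10 members (Atf4, Ddit3, Chac1, Trib3 and Psat1), against 7.16% of all tested genes, and at day 6 for 4 of 10 (Ddit3, Chac1, Trib3 and Psat1), against 6.04%. At day 8 it did so for Psat1 alone, against 7.7%. Trib3 was 5.07 times as high at day 4 and 5.86 times as high at day 6, but at day 8 its ratio was 0.684. The 14 ER chaperones summed to 6763 RPM in that library at day 4, 9075 at day 6 and 2818 at day 8, against 4672, 3769 and 3494 RPM in scrambled library 1. Adipocyte markers, in contrast, stayed high in that library at day 8. Scrambled library 2 at days 4 and 6 was thus high in adipocyte markers, ER chaperones and most members, and at day 8 in adipocyte markers but not in ER chaperones. The part of these libraries' state in the members' values was not tested beyond leaving them out.

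Over the 5 days together, 3 of 10 members rose and 0 fell (limma, day as a factor). Of all tested genes 25.4% passed, 12.3% higher and 13.2% lower, so 3 of 10 members lay near the share called in either direction. The 3 were Chac1 at 0.68 (adjusted p = 0.0271), Slc7a11 at 0.31 (adjusted p = 0.0289) and Atf5 at 0.36 (adjusted p = 0.0301). Knockdown exceeded the same-numbered scrambled library in 8 of 10 pairs for Chac1, 9 of 10 for Slc7a11 and 10 of 10 for Atf5. All 10 fitted averages were above 0, from 0.03 for Psat1 to 0.78 for Trib3, beside 49.4% of all tested genes, and the members' median was 0.32 against -0.00280 over all tested genes. Libraries of 1 hairpin may share a selected cell population over the days, and this fit counts them as independent.

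These calls moved with single libraries. Chac1 lost its call in 3 of 20 fits with a library removed, those without knockdown day 2 library 2 (0.59, adjusted p = 0.0509), scrambled day 6 library 1 (0.59, adjusted p = 0.0501) and knockdown day 8 library 1 (0.64, adjusted p = 0.0554). Slc7a11 lost it in 6 (0.28 to 0.30, adjusted p of at most 0.0629), when either knockdown library of day 6 or 8, or scrambled library 2 of day 4 or 8, was left out. Atf5 lost it in 8 (0.30 to 0.35, adjusted p of at most 0.0605): without knockdown library 2 of day 2, 4, 6 or 8, scrambled library 1 of day 2, 4 or 6, or scrambled library 2 of day 8. Leaving out scrambled library 2 of day 4 gave 7 members called, beside 20.8% of all genes, and Atf4 then stood at 0.43 (adjusted p = 0.0148) and Trib3 at 0.98 (adjusted p = 0.0148). Without scrambled library 1 of day 0 Sesn2 was called, at 0.25 (adjusted p = 0.0497). Without scrambled library 2 of day 6, which also gave 7 members (beside 20.1% of all genes), Ddit3 was at 0.70 (adjusted p = 0.0257) and Trib3 at 0.99 (adjusted p = 0.0107).

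Without all 3 late scrambled libraries numbered 2, 8 of 10 members passed, all higher. Of all tested genes 20.7% passed in that fit, 10.2% higher and 10.5% lower. Of the libraries left out, 2 held the highest levels of most members on their days. Removing high scrambled values raises those members' averages by construction, and leaves a single scrambled library on each of the days concerned. The fit therefore shows how far the averages rest on these libraries, and is no separate test of the knockdown effect. In it Trib3 stood at 1.20, Chac1 at 0.96, Ddit3 at 0.84 and Atf4 at 0.48. Psat1 moved to 0.41. Slc7a11, which was lowest in these libraries, moved down to 0.17 and no longer passed, and Ddit4 did not pass at 0.32. With the replicate number as a block and all 20 libraries, 6 of 10 passed: Atf4 (adjusted p = 0.0441), Trib3 (adjusted p = 0.0486) and Sesn2 (adjusted p = 0.0388) joined Chac1, Slc7a11 and Atf5. The block also raised the share of all genes that passed, to 35.9%.

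**Figure D3:**
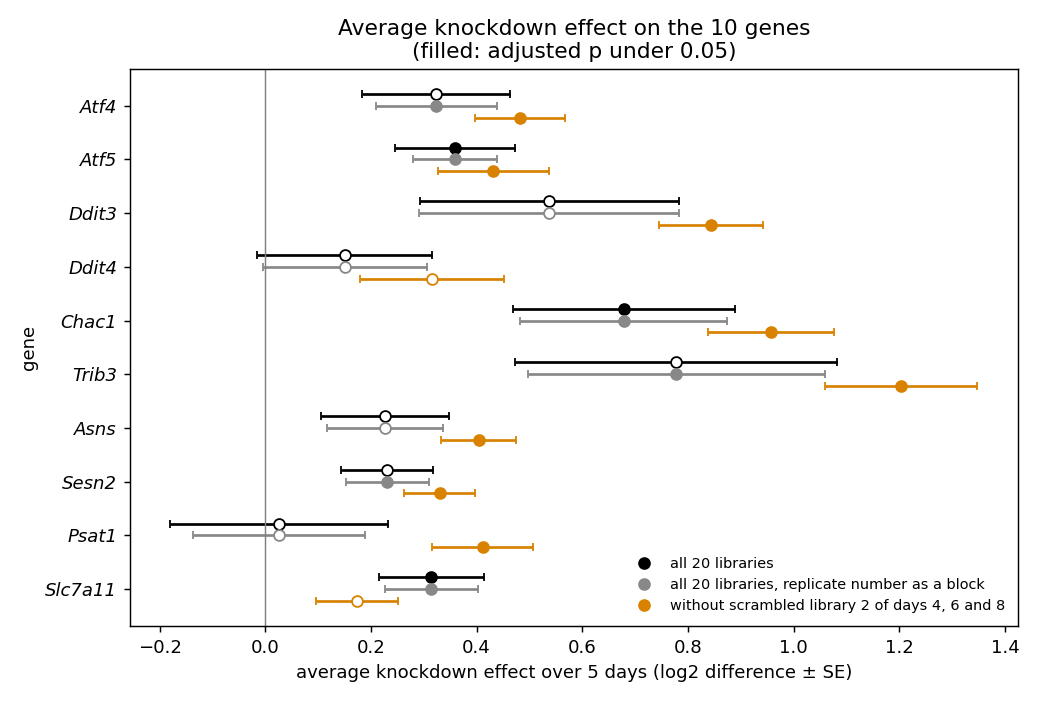
Average knockdown effect over the 5 days (log2 difference ± SE) for each gene, from all 20 libraries (black), with the replicate number as a block (grey) and without scrambled library 2 of days 4, 6 and 8 (orange); filled points had an adjusted p under 0.05. Filled points number 3, 6 and 8 in the 3 fits, and Trib3 moves to 1.20 and Psat1 to 0.41 in the last.

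Whether the knockdown effect differed between days was tested with an F test on recovered reads (limma voom). It called 0 members and 0 of 16497 genes (0.0%), with 464 genes (2.81%) and 0 members at an unadjusted p under 0.05. Limma with a trend on log2(RPM + 1) called 4 genes, none of them a member. The loss of the gap between the groups at days 4 and 6 is therefore not shown to be a change of the knockdown effect.

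Levels were also compared between days within each arm, on recovered reads with limma voom. The shares of members that passed were near those of all genes. Between day 0 and day 2 in scrambled cells, 3 of 10 members changed, against 24.7% of all tested genes. Ddit4 rose, with 307 ± 9.32 RPM at day 2 and 60.8 ± 27.7 RPM at day 0 (SD, n = 2 each), a log2 difference of 2.51 (SE 0.362, adjusted p = 0.000363). Ddit3 fell, with 16.1 ± 2.32 RPM at day 2 and 70.7 ± 8.87 RPM at day 0, and Atf5 fell, with 144 ± 20.9 RPM at day 2 and 447 ± 57.3 RPM at day 0 (adjusted p = 0.0324 and 0.00151). The Ddit3 call was lost when any 1 library of those groups was left out, with log2 differences of -2.18 to -1.91 and adjusted p of 0.0907 to 0.179. Trib3 had 8.64 ± 0.85 RPM at day 2 against 53.3 ± 5.79 RPM at day 0, a log2 difference of -2.55 (SE 0.928, adjusted p = 0.062), which did not pass. Trib3 passed with the replicate block (adjusted p = 0.0268; 35.6% of all genes then passed), with log2(RPM + 1) (adjusted p = 0.0267) and with scaling by total reads (adjusted p = 0.0495).

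In knockdown cells the same step moved 2 of 10 members, against 15.4% of all genes, Ddit4 up by 1.93 (SE 0.363, adjusted p = 0.00321) and Atf5 down, at -1.21 (SE 0.28, adjusted p = 0.0103). The Atf5 call was lost without knockdown library 2 of day 0 (-1.13, adjusted p = 0.0728) or knockdown library 1 of day 2 (-0.85, adjusted p = 0.122). Ddit3 at -1.50 (SE 0.598, adjusted p = 0.114), Trib3 at -1.52 (SE 0.793, adjusted p = 0.227) and Chac1 at -1.05 (SE 0.635, adjusted p = 0.302) had lower means at day 2 and did not pass. The 9 glucocorticoid-induced genes summed to 2832 and 2657 RPM in knockdown and 3017 and 2984 RPM in scrambled libraries of day 2, beside 757 and 611 RPM in knockdown and 747 and 597 RPM in scrambled libraries of day 0. Their part in the Ddit4 change was not tested.

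From day 2 to day 8 the members that passed were Atf5 and Ddit4 in both arms, each opposite in direction to its earlier step. In knockdown cells 2 of 10 members changed (15.7% of all genes), Atf5 by 1.22 (SE 0.279, adjusted p = 0.00964) and Ddit4 by -2.65 (SE 0.363, adjusted p = 0.000421). The Atf5 call was lost without knockdown library 1 of day 2 (0.86, adjusted p = 0.123) or knockdown library 2 of day 8 (1.06, adjusted p = 0.0951). In scrambled cells 2 of 10 changed (25.3%), Atf5 by 1.09 (SE 0.271, adjusted p = 0.0111), lost without scrambled library 1 of day 2 (0.92, adjusted p = 0.0894), and Ddit4 by -2.51 (SE 0.362, adjusted p = 0.000385). Trib3 at 2.41 (SE 0.927, adjusted p = 0.0743) and Chac1 at 1.91 (SE 0.794, adjusted p = 0.0962) had higher scrambled means at day 8 without passing. With the replicate block Slc7a11 (0.60, adjusted p = 0.0461) passed in knockdown cells, and Trib3 (2.49, adjusted p = 0.0318) and Chac1 (1.91, adjusted p = 0.0496) passed in scrambled cells, beside 26.0% of all genes in knockdown cells and 37.2% in scrambled cells. Without the 3 late scrambled libraries numbered 2, Trib3 and Ddit3 passed at both steps in both arms, which gave 5 and 6 members in knockdown cells and 6 and 5 in scrambled cells. Of all genes 25.6% and 26.1% then passed in knockdown cells and 36.0% and 25.8% in scrambled cells.

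Other genes of the pathway were read from lists, for the average effect over the 5 days, where 12.3% of all genes rose and 13.2% fell. Upstream, of 12 genes for eIF2alpha kinases, its phosphatase and the eIF2B exchange factor, 1 rose and 3 fell. These are mRNA levels, and neither kinase activity nor phosphorylation of eIF2alpha was measured. The riser was Eif2ak2 (PKR, the kinase activated by double-stranded RNA), at 0.96 (adjusted p = 2.14e-05). Its levels were 72.1 to 166 RPM in the 10 knockdown libraries and 48.7 to 84.1 RPM in the 10 scrambled libraries, with both knockdown libraries above both scrambled libraries on each of the 5 days. Eif2b1, at -0.43 (adjusted p = 0.0181), Ppp1r15b, a subunit that directs dephosphorylation of eIF2alpha, at -0.48 (adjusted p = 0.0273), and Eif2ak1, the haem-sensing kinase, at -0.18 (adjusted p = 0.0258), fell. Of 7 other transcription factors of the response, Nfe2l1 at 0.31 (adjusted p = 0.0162) and Jdp2 at 0.24 (adjusted p = 0.0375) rose, and Cebpg, a dimer partner of ATF4, fell at -0.34 (adjusted p = 0.0476). With the 3 late scrambled libraries numbered 2 left out, 2 of the 12 upstream genes rose and 1 fell: Eif2ak2 stood at 0.83 (adjusted p = 9.92e-05) and Eif2b1 at -0.21 (adjusted p = 0.0431), while Ppp1r15b at -0.20 (adjusted p = 0.064) and Eif2ak1 at -0.11 (adjusted p = 0.101) did not pass. Of the 7 transcription factors 3 then rose and 0 fell, with Cebpg at -0.11 (adjusted p = 0.182) and Jdp2 at 0.17 (adjusted p = 0.134) not passing.

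The amino acid lists were counted next. In serine, glycine and one-carbon synthesis 3 of 8 genes rose and 0 fell, with a median of 0.33. These were Aldh1l2, a mitochondrial folate enzyme, at 0.92 (adjusted p = 0.000229), Mthfd1l at 0.53 (adjusted p = 0.0283) and Pycr1, of proline synthesis, at 0.35 (adjusted p = 0.0342). Of 9 amino acid transporters 4 rose and 1 fell (median 0.35), among them Slc1a4 at 0.80 (adjusted p = 3.01e-05), Slc6a9 at 0.78 (adjusted p = 0.00194) and Slc7a5, the large neutral amino acid carrier, at 0.72 (adjusted p = 0.0289). The one that fell was Slc43a1, at -1.30 (adjusted p = 0.000147). Of 13 genes in the aminoacyl-tRNA synthetase list, which includes the tRNA exporter Xpot, 6 rose and 0 fell (median 0.29), led by Aars at 0.48 (adjusted p = 0.00681), Sars at 0.36 (adjusted p = 0.0103), Nars at 0.39 (adjusted p = 0.0105) and Cars at 0.39 (adjusted p = 0.0295). Summed, that list was at 2438 and 3024 RPM in knockdown and 1779 and 1733 RPM in scrambled libraries of day 8. At day 4 the sums were 2098 and 2398 RPM in knockdown and 1617 and 2862 RPM in scrambled libraries, scrambled library 2 being the highest of the 4 libraries. The median day 4 difference of the 3 lists was near 0, at -0.04 for serine, glycine and one-carbon synthesis, 0.01 for the transporters and 0.05 for the synthetase list. With scrambled library 2 of days 4, 6 and 8 left out, 6 of 8, 5 of 9 and 11 of 13 genes of these lists rose and 0, 1 and 0 fell (medians 0.43, 0.42 and 0.39), and Pycr1 no longer passed, at 0.36 (adjusted p = 0.0563).

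Slc6a9, a glycine carrier, was apart between the groups at day 8 and overlapped at day 4. At day 8 it had 27.4 and 26.1 RPM in knockdown and 11.9 and 4.40 RPM in scrambled libraries, and at day 4 it had 14.9 and 10.9 RPM in knockdown and 6.19 and 12.0 RPM in scrambled libraries. Of 12 tested among 14 other described ATF4 targets, 4 rose and 1 fell (median 0.07). Ndrg1 stood at 0.77 (adjusted p = 4.94e-05), Sqstm1, an autophagy receptor, at 0.43 (adjusted p = 0.0053), and Nars counts here too. Vegfa fell, at -0.66 (adjusted p = 0.00905). Without the 3 late scrambled libraries 6 rose and 1 fell (median 0.24).

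Related stress pathways were read in the same way. Of the 14 ER chaperones and related genes of the unfolded protein response 0 rose and 3 fell (median -0.12): Dnajb9 at -0.66 (adjusted p = 0.0121), Pdia4 at -0.63 (adjusted p = 0.0152) and Xbp1 at -0.54 (adjusted p = 0.0415). The sign of their differences varied with the day: 11 of 14 differences were above 0 at day 2 (median 0.23) and 9 of 14 at day 8 (median 0.21), but 0 of 14 at days 4 and 6 (medians -0.42 and -0.79), the days on which scrambled library 2 was high in these genes. In the fit that leaves out the 3 late scrambled libraries 2 rose and 2 fell (median 0.06), Xbp1 no longer passing at -0.21 (adjusted p = 0.183). Of 8 NRF2 targets, with a median of -0.02, Txnrd1 alone rose, at 0.20 (adjusted p = 0.0117). Of 9 glucocorticoid-induced genes Sgk1 rose at 0.25 (adjusted p = 0.0363), and Zbtb16 at -0.63 (adjusted p = 0.00203) and Klf9 at -0.29 (adjusted p = 0.0467) fell (median 0.02). Without the 3 libraries 1 NRF2 target rose and 1 fell (median 0.17), and 0 glucocorticoid-induced genes rose and 2 fell (median 0.09), with Sgk1 at 0.19 (adjusted p = 0.0942) and Klf9 at -0.14 (adjusted p = 0.167) not passing. No test of a difference between these lists was made.

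**Figure D4:**
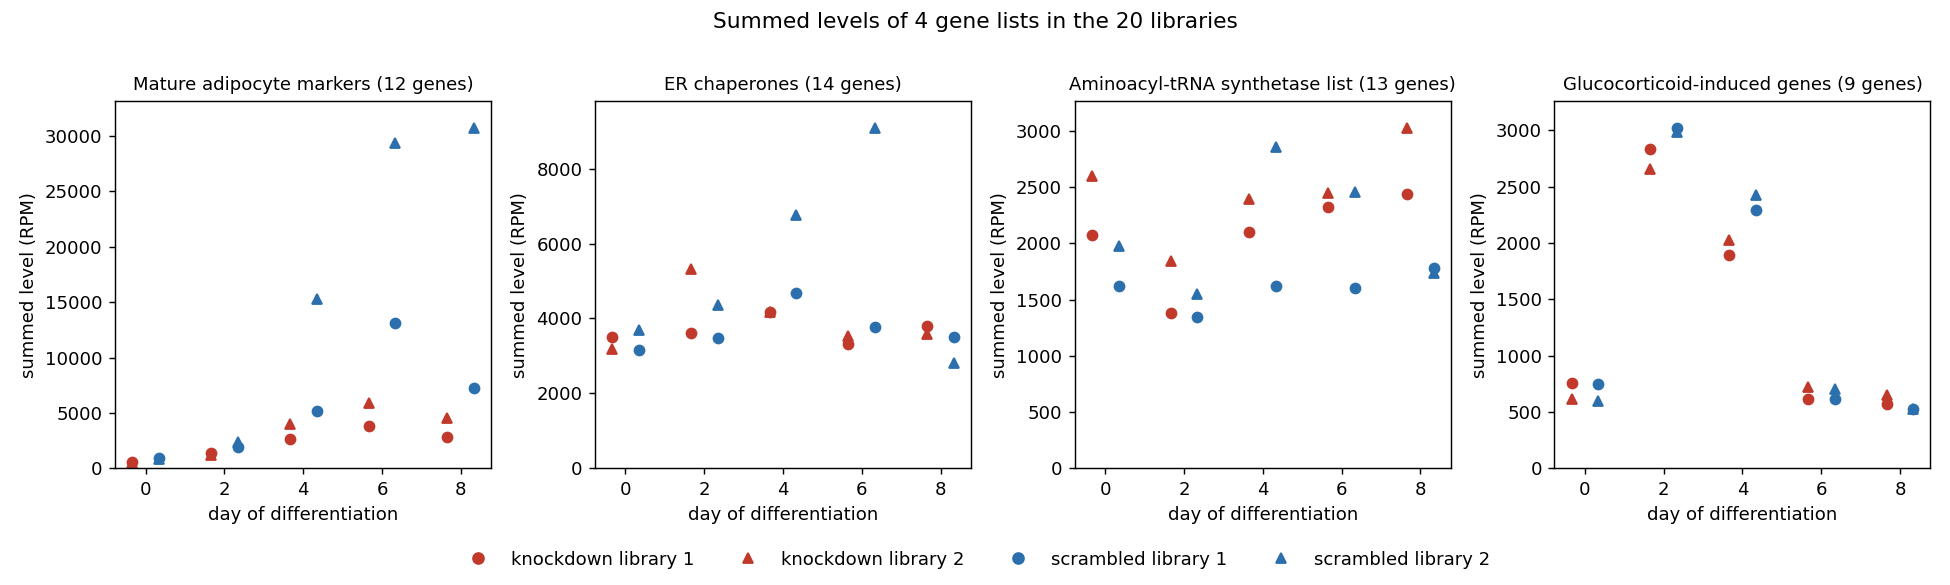
Summed level (RPM) of the mature adipocyte markers, the ER chaperones, the aminoacyl-tRNA synthetase list and the glucocorticoid-induced genes in each library, against day, with knockdown (red) left of scrambled (blue), circles for number 1 and triangles for number 2. Scrambled library 2 is the highest at days 4 and 6 in the first 3 panels, and in the adipocyte panel it reaches 30701 RPM at day 8.

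Markers of cell state moved with the same contrast. All 12 mature adipocyte markers fell with knockdown (median -1.40), Fabp4 at -1.79 (adjusted p = 0.00136) and Pparg at -1.29 (adjusted p = 0.00276) among them. Of 9 fibroblast and preadipocyte markers 5 rose and 1 fell (median 0.43), with Col1a1 at 0.74 (adjusted p = 0.00822) and Pdgfra at -0.48 (adjusted p = 0.0212). Without the 3 late scrambled libraries 11 of 12 adipocyte markers fell (median -0.83), Fabp4 at -1.21 (adjusted p = 0.00087) and Pparg at -0.80 (adjusted p = 0.000293), and 3 of the 9 fibroblast and preadipocyte markers rose and 1 fell (median 0.25). Of 8 macrophage markers 7 were in the tables and 5 were tested. Emr1 was at 0 in all 20 libraries and Ptprc in 12 of them. Itgam lay at 10.5 to 18.9 RPM, Lyz2 at 0.816 to 8.44, Csf1r at 0.0430 to 1.33 and Cd68 at 0.271 to 1.29. Siglec1, at 0.663 to 117 RPM, fell at -1.42 (adjusted p = 0.00596), and stood at -0.84 without the 3 late scrambled libraries. The other 4 tested macrophage markers were not called, and the median of the 5 was 0.03. The summed adipocyte markers were lower in both knockdown than in both scrambled libraries on each of the 5 days, and their part in the members' differences was not tested. At day 0 the adipocyte sums were 577 and 467 RPM in knockdown and 904 and 809 RPM in scrambled libraries. Trib3, Chac1 and Ddit3 were also apart between the groups that day, with knockdown above. That pattern was shown by 16.8% of all tested genes, and none of these members passed the limma test at day 0. The authors' deposited table (DESeq2, fitted day by day) called Trib3 (adjusted p = 0.0042) and Chac1 (adjusted p = 0.0341) at day 0. It did not call Ddit3 (adjusted p = 0.0792), and 1.63% of all genes were called there.

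Genes with the profile most like the members' were sought over the 10 group means of standardised log2(RPM + 1), by root mean square distance to the members' mean profile, among 12382 genes. Each of the 10 members is part of that mean profile, which shortens its own distance. Members' distances and ranks are therefore not comparable with those of other genes. Atf4 itself was nearest at 0.149 and Chac1 next at 0.243. The nearest genes outside the 10 were Pard6a at 0.359, Wwp1 at 0.366, Nars at 0.377, Ghdc at 0.379 and Pck2, mitochondrial PEP carboxykinase, at 0.382. Trib3 ranked 11 at 0.412, whereas Ddit4, at 1.61, ranked 9419.

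In the authors' deposited table, whose fold changes were fitted day by day, 7 of the 50 member values had an adjusted p under 0.05, 2, 2, 0, 1 and 2 of 10 on the 5 days. Of all genes with an adjusted p in the authors' deposited table, 1.63%, 4.72%, 2.53%, 6.16% and 3.55% were called on those days. The authors' deposited table called Chac1 at day 0 (log2 fold change 0.74, adjusted p = 0.0341), day 2 (1.05, adjusted p = 0.000741) and day 8 (1.01, adjusted p = 0.0131). Its fold changes are not on the scale of the differences above. At day 2 the authors' deposited table has 1.05 for Chac1 and 0.60 for Trib3, and recovered reads gave 1.59 and 1.94. Trib3 was called in the authors' deposited table at day 0 (0.75, adjusted p = 0.0042) and day 8 (1.06, adjusted p = 0.00543). By the authors' deposited table Ddit3 passed at day 2 (1.04, adjusted p = 3.24e-05) and Ddit4 at day 6 (0.71, adjusted p = 0.0465). All 7 were higher in knockdown, and at days 4 and 6 the table called no other member.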

How the data were processed

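The data were RNA-seq libraries of 3T3-L1 cells, 2 per hairpin and day, in 5 deposited tables of 33581 genes, 1 table per day. Per the labels, libraries came from total RNA with the TruSeq kit. Per the submitters' processing notes, TopHat2 2.0.13, Bowtie2 2.2.3.0, SAMtools and DESeq2 1.10.1 were used with mm9; how reads were counted, with what strand setting and gene models, is not given in the sources used here. Per library the authors deposited log2 values after variance stabilisation, done table by table. Their other deposited columns are a mean signal over the 4 libraries (mean normalised count), a log2 fold change and standard error, a test score, a p-value and an adjusted p-value. Unused per-library columns numbered 0.

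Reads were recovered by inverting the transformation: 100% of low values, checked up to 100 reads, lay within 0.02 reads of a whole number. RPM are these reads scaled by the library's recovered total. Totals were 20153362 to 33973608 reads.

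Tests covered the 16497 genes whose mean normalised count reached 10 in 1 or more tables. Knockdown effects used limma 3.58.1 (R 4.3.3, statmod 1.5.0) with a trend and robust spread on the deposited log2 values, 10 group means and 10 residual degrees of freedom at single days, and day as a factor with 14 for the average. Time steps and the F test used limma voom on recovered reads. P-values were adjusted by Benjamini-Hochberg over all tested genes and called at 0.05. Scripts were tested on simulated counts, drawn independently for each library with a fixed spread. That simulation held neither a pairing by library number nor outlying libraries, so it does not cover those features of the data.

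Labels give each group libraries 1 and 2. How far libraries with 1 number strayed from their group means was correlated between the arms (0.783, 0.702, 0.551, 0.537 and 0.468 for days 0, 2, 4, 6 and 8). The numbers were therefore read as a pairing, from the data and not from a named shared culture. The main fits do not use this pairing, and the replicate block was run as an alternative. The members and lists were chosen with earlier results of these data known. Named genes are the 10 members, Tcf7l2, up to 4 genes per list with the smallest adjusted p among those called for the average effect, and the 5 nearest profiles. Coordinates and sequences come from RefSeq on GRCm38.p6 and were not joined to mm9. Alternatives were another filter or none, other scalings, voom or log2(RPM + 1) in place of the deposited values, a fit per table, a replicate block, and leaving out libraries. The gene lists without the 3 late scrambled libraries numbered 2 were an alternative chosen after seeing the data.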

Additional observations from a re-analysis of the deposited data

How the results depend on the processing

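Precision is limited by 2 libraries a group; the least-read member, Chac1 at day 2, still had a mean normalised count of 229.9. Of the member results compared with their main value, 2850 kept direction and side of the threshold, 29 lost a call, 77 gained one and 64 turned direction, and the causes were not tested. Genes called at days 0, 2, 4, 6 and 8 numbered 37, 44, 266, 679 and 948. The replicate block gave 132, 128, 512, 2967 and 2817, separate fits of each day (fewer libraries per fit) 0, 264, 111, 52 and 0, and voom on recovered reads 102 at day 2, 424 at day 6 and 511 at day 8. Without the 3 late scrambled libraries numbered 2 the counts were 263, 194 and 495 at days 0, 2 and 8, and without all 6 late libraries numbered 2 they were 132, 86, 54 and 243 at days 0, 2, 4 and 8. Leaving out 1 library gave 3 to 67, 7 to 61, 115 to 378, 93 to 2330 and 115 to 3766 genes on the 5 days.

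Members called at single days went to 1 (day 6) and 2 (day 8) with the block, to 1 and 1 without the 3 libraries, and to 0 to 1 at day 6 when 1 library was left out. On average 3 members were called, 6 with the block, 8 without the 3 or the 6 libraries, and 1 to 7 with 1 left out; 4195 genes were called, 2794 without the 6 libraries and 3037 to 4626 with 1 left out. The block (pairing by number) changed no member's call for the knockdown effect beyond those counted here. For the time steps, members called in scrambled cells from day 0 to 2 were 3, but 6 without the 3 libraries and 2 to 4 with 1 left out. From day 2 to 8 they were 2, but 4 with log2(RPM + 1), 4 with the block, 5 without the 3, 4 without the 6 and 1 to 5 with 1 left out. In knockdown cells they were 2 at each step, with the first step at 5 without the 3, 4 without the 6 and 1 to 3 with 1 left out, and the second at 6 without the 3 and 1 to 3 with 1 left out. Genes called at the knockdown steps were 2535 and 2596, with 4090 and 4292 under the block, 4230 and 4312 without the 3 libraries, and 1149 to 2962 and 1115 to 2981 with 1 left out. The scrambled steps gave 1751 to 4611 and 1781 to 4433 genes with 1 left out. The F test called 4 genes in place of 0 with log2(RPM + 1).

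Directions turned as follows (log2 differences). Median centring gave Atf4 0.011 and Ddit3 0.010 at day 4, and voom gave Ddit3 0.0015. Without the 3 late scrambled libraries, day 4 gave Atf4 0.52, Ddit3 0.93, Ddit4 0.016, Asns 0.36 and Psat1 0.27, day 6 gave Ddit3 0.85 and Psat1 0.41, and day 8 gave Ddit4 0.26. Without the 6, day 4 gave Atf4 0.49, Ddit3 1.12, Asns 0.34 and Psat1 0.066, day 6 gave Ddit3 0.93 and Psat1 0.29, and day 8 gave Ddit4 0.46. Psat1 from day 2 to 8 in scrambled cells became -0.12 without the 3 and -0.13 without the 6, and Asns in knockdown cells became -0.014 without the 6. Slc7a11 from day 0 to 2 in knockdown cells became -0.097 with scaling by total reads and -0.097 with log2(RPM + 1). With 1 library left out, ranges that crossed 0 were Slc7a11 -0.22 to 0.15 at day 0, Ddit4 -0.026 to 0.061 at day 2, Atf4 -0.56 to 0.52, Atf5 -0.024 to 0.56, Ddit3 -0.96 to 0.93, Ddit4 -0.86 to 0.016, Chac1 -0.85 to 0.95, Trib3 -0.93 to 1.34, Asns -0.50 to 0.36, Sesn2 -0.15 to 0.35 and Psat1 -1.05 to 0.27 at day 4, Atf4 -0.23 to 0.70, Atf5 -0.031 to 0.59, Ddit3 -0.88 to 0.85, Trib3 -0.96 to 1.57, Asns -0.35 to 0.52, Sesn2 -0.15 to 0.53 and Psat1 -0.96 to 0.41 at day 6, Ddit4 -0.47 to 0.26 and Psat1 -0.53 to 0.80 at day 8, and Psat1 -0.077 to 0.15 on average. In the time steps they were Slc7a11 -0.35 to 0.032 (scrambled, day 0 to 2), Asns -0.29 to 0.0032 and Psat1 -0.13 to 1.22 (scrambled, day 2 to 8), Atf4 -0.44 to 0.26 and Slc7a11 -0.10 to 0.18 (knockdown, day 0 to 2) and Atf4 -0.0059 to 0.69 and Asns -0.035 to 0.26 (knockdown, day 2 to 8).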
